A study of Mus musculus with 6 samples.

Results

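Tnfsf4, Spn, Stap1 and Lat encode proteins that are best known from signalling in lymphocytes or toward them. All 4 genes were measured here in RANKL-induced bone marrow macrophages (BMMs), the mouse cells that fuse into osteoclasts. Spn, Stap1 and Tnfsf4 were higher in cells given mogrol, by 3.28-fold, 2.66-fold and 4.99-fold, whereas Lat was 2.07-fold lower (ratios of group means after scaling to the library totals, n = 3 libraries a group). The 4 genes were chosen by their symbols from the deposited table of 109 genes. The authors had selected every gene of that table on its difference between these same 6 libraries. The difference between the groups is therefore given as a description, with standard errors (SE) and without p-values.

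The study compared 3 control libraries with 3 libraries of cells given 20 μM mogrol, a plant triterpenoid that is the aglycon of mogroside. All 6 libraries came from BMMs of C57BL/6 mice (C57BL/6J in the study's methods), grown out in M-CSF, that received 30 ng/ml RANKL, the cytokine that drives osteoclast differentiation, for 5 days, so there was no group without RANKL. In the study's own staining of such cultures after 5 days, multinucleated osteoclasts were present and were fewer with 20 μM mogrol. The share of osteoclasts in the sequenced cultures is not given. The control group is labelled with RANKL alone, and whether it received the solvent of mogrol is not given in the sources used here. Nothing in the labels says that the libraries of a group came from separate mice or cultures, so the spread between them may be technical. The study's methods say in general that data came from independent experiments and do not tie this to the libraries.

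OX40L, the product of Tnfsf4, is a membrane ligand of the TNF superfamily that antigen-presenting cells show to OX40 on activated T cells. CD43, the product of Spn, is a large sialylated mucin on the surface of leukocytes. LAT is a membrane scaffold that is phosphorylated on tyrosines below the T cell receptor and, in mast cells, below the IgE receptor. STAP1 is a cytoplasmic adaptor with PH and SH2 domains that was described in B cells and in cells of the myeloid lineage. In osteoclast precursors, signals from immunoreceptors with tyrosine-based motifs act beside RANKL.

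Promoter sequences are given for Spn and Lat, the 2 of the 4 genes that matched the RefSeq promoter set, and not for Tnfsf4 and Stap1. Spn and Lat lie on the same strand of the same chromosome and differed in opposite directions. Lat and Spn are 763 kb apart on chromosome 7, with 47 protein-coding genes between them, of which 0 are in the deposited table. The sequences are the 250 bases before each RefSeq start site (GRCm38.p6, minus strand, written 5′ to 3′ in the direction of transcription). Spn is chr7:127137824-127138073 and Lat is chr7:126369569-126369818. Capitals mark matches, on either strand, to the letters GGAAA (the core bound by NFAT factors), GAGGAA (a core bound by PU.1), TGANTCA (AP-1) and CACGTG (an E-box), of which the first pair can overlap in GAGGAAA.
Spn: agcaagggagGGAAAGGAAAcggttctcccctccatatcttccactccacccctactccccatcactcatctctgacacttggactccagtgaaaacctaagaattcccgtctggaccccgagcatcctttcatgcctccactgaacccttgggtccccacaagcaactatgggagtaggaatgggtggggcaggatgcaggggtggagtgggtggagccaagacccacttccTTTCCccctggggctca
Lat: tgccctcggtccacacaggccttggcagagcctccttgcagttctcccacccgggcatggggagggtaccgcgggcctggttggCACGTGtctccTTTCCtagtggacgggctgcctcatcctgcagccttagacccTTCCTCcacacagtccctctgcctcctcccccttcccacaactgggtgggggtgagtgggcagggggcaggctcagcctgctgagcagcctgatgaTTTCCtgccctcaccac

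The Spn window held 3 matches to GGAAA, of which a pair lay directly side by side between 240 and 231 bases before the start. The Lat window held 2, and in both genes the match nearest the start lay from 17 to 13 bases before it, on the reverse strand. Only the Lat window of the pair held CACGTG, from 166 to 161 bases before the start, and GAGGAA, from 113 to 108. Neither window held TGANTCA. Over all 32851 windows of the RefSeq set, 55.6% held GGAAA, 23.3% GAGGAA, 6.75% TGANTCA and 6.02% CACGTG. A match of letters is a description of the window and no measure of binding. The GC content was 56.8% for Spn and 65.2% for Lat, against a median of 52.4% over all windows.

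Tnfsf4 (ENSMUSG00000026700, GRCm38 chromosome 1, 161395409 to 161418410, plus strand) was the least abundant of the 4 genes in control cells. The authors' FPKM values, reads scaled by gene length and library total, were 0.59, 0.81 and 0.95 for controls and 4.14, 3.84 and 3.78 with mogrol. They rested on 20, 28 and 32 reads without mogrol and on 141, 128 and 128 with it. The groups did not overlap, and the lowest mogrol library was 3.97 times as high, by reads scaled to the library total, as the highest control library. Its level was 1.45 ± 0.342 RPM (reads over the library total, on a scale common to all libraries) without mogrol and 7.22 ± 0.351 RPM with it (SD, n = 3).
The log2 fold change of Tnfsf4 was 2.32 (SE 0.235), the second-highest of the 109 genes. In control cells the SD over libraries was 23.7% of the mean, and this was 1.22 times what counting reads alone would give, so the control level was known least well of the 4. Leaving out control replicate 1, the library with 20 reads, gave 2.14, and leaving out control replicate 3 gave 2.48. No other annotated gene overlaps Tnfsf4, and its annotation holds 1 transcript.

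Spn (ENSMUSG00000051457, chromosome 7, 127132232 to 127137823, minus strand) had FPKM values of 2.05, 1.96 and 2.15 for controls and 6.93, 6.37 and 6.92 with mogrol. The reads were 178, 171 and 183 in control cells and 600, 540 and 595 in cells given mogrol. Replicates of either group lay close together, with an SD of 4.59% of the mean in control cells and 4.70% in cells given mogrol. These were 0.61 and 1.13 times what counting reads alone would give on average. An SD of 3 libraries is itself imprecise, so nothing is read from the value below 1. The lowest mogrol library was 2.97 times the highest control library.
The level of Spn was 9.61 ± 0.441 RPM in control cells and 31.6 ± 1.48 RPM in cells given mogrol (SD, n = 3), and its log2 fold change was 1.71 (SE 0.125). Across the 6 fits that each left out a library the value lay between 1.68 and 1.75, the narrowest range of the 4 genes. Spn has an annotated pseudogene copy, Spn-ps, on chromosome 15 (90891402 to 90899022). How reads that fit both places were counted is not given in the sources used here, so the level of Spn is uncertain to that extent.

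Stap1 (ENSMUSG00000029254, chromosome 5, 86071746 to 86106125, plus strand) had FPKM values of 1.23, 1.04 and 1.11 in control cells and of 3.64, 2.50 and 2.87 in cells given mogrol. Its reads were 142, 120 and 126 for controls and 418, 281 and 328 with mogrol. Mogrol replicate 1 was well above the other mogrol libraries, and the lowest mogrol library was still 2.03 times the highest control library. Stap1 had 7.01 ± 0.621 RPM in control cells and 18.7 ± 3.60 RPM in cells given mogrol (SD, n = 3).
The log2 fold change of Stap1 was 1.41 (SE 0.147), and 1.25 without mogrol replicate 1. On the log2(FPKM + 1) scale, which understates the change of genes at low levels, it was 0.90 and so under 2-fold, as was Lat at -0.90. The libraries of Stap1 were spread more widely with mogrol. In control cells the SD was 1.01 times the counting error and in cells given mogrol 3.57 times, where the medians over the 109 genes were 1.77 and 1.54. A small nuclear RNA gene, Gm24524, is annotated on the same strand within Stap1.

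Lat (ENSMUSG00000030742, chromosome 7, 126363824 to 126369570, minus strand) was the most abundant of the 4 genes in control cells and the only one that was lower with mogrol. Its FPKM values were 8.14, 8.72 and 8.55 for controls and 3.59, 4.17 and 4.49 with mogrol. The reads were 417, 450 and 431 in control cells and 184, 209 and 228 in cells given mogrol. Every control library was above every mogrol library, with the lowest control library 1.81 times the highest mogrol library.
Lat had 23.4 ± 0.831 RPM in control cells and 11.3 ± 1.25 RPM in cells given mogrol (SD, n = 3). The log2 fold change of Lat was -1.05 (SE 0.129), which left it past 2-fold by less than its SE. Without mogrol replicate 1, the lowest library, it was -0.97 and no longer past 2-fold. With scalings computed on the 109 selected genes alone, which move the median of the table by 0.98 (median-of-ratios) and 0.42 (TMM) on the log2 scale, Lat was at -0.07 and -0.63 and was not called. With the authors' size factors, recovered from their mean normalized counts, Lat was at -1.12 (SE 0.129). In the main fit Lat lay 0.04 above the median of the table and Tnfsf4, Spn and Stap1 lay 3.404, 2.80 and 2.50 above it. The miRNA gene Mir7058 is annotated on the same strand within Lat.

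**Figure D1:**
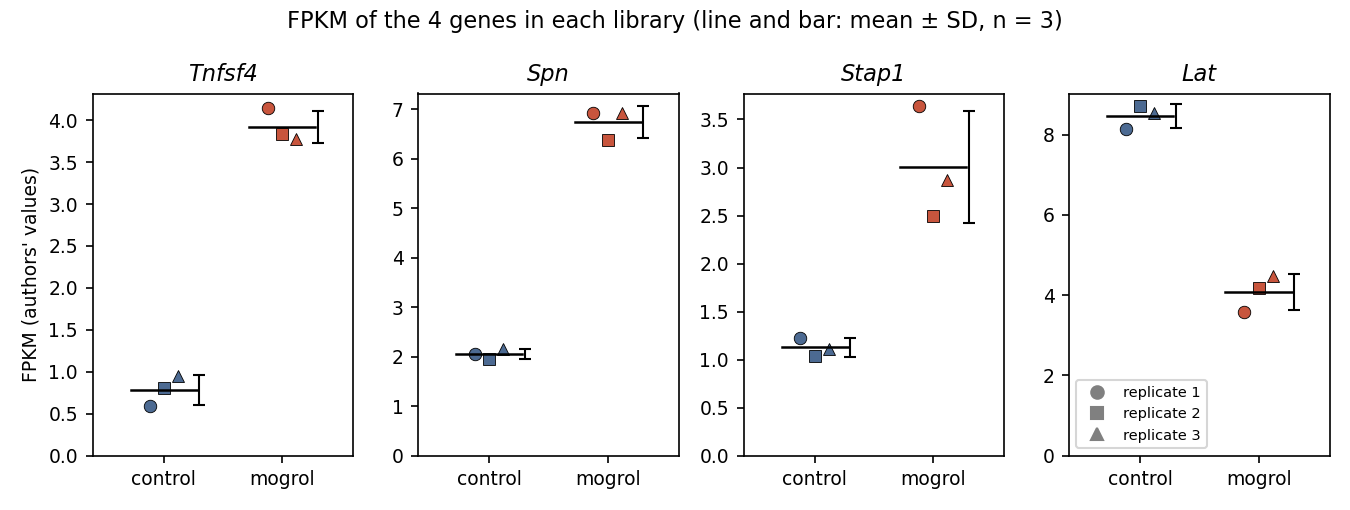
FPKM (vertical axes, each starting at 0) of Tnfsf4, Spn, Stap1 and Lat in the 3 control and 3 mogrol libraries, with marker shape for the replicate number, a horizontal line for the mean and a bar for the SD. The groups are apart in all 4 panels, the control libraries of Lat lie above the mogrol libraries, and mogrol replicate 1 of Stap1 stands at 3.64 against 2.50 and 2.87.

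In edgeR's quasi-likelihood fit over the whole table, a gene was called when its adjusted p-value was below 0.05 and its log2 fold change lay beyond 1 in either direction. All 4 genes were called, against 98.2% of the 109 genes. Of the 4 genes 3 were called higher and 1 lower, where 41.3% of the table was called higher and 56.9% lower. For 4 of the 4 genes the highest library of the lower group stayed under the lowest of the other, as for 100% of the table. These shares follow from how the table was made, and nothing is read from them. The library totals recovered from the table lay between 18097882 and 18652439 reads, and the reads of the 109 genes were 2.04% to 2.27% of them in control cells and 1.21% to 1.25% in cells given mogrol. In bulk RNA, fewer cells that express a gene and less RNA per cell cannot be told apart.
Tnfsf4 ranked second, Spn 9th and Stap1 17th from the top of the table by log2 fold change. Lat ranked 59th from the bottom, among the smallest decreases.

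**Figure D2:**
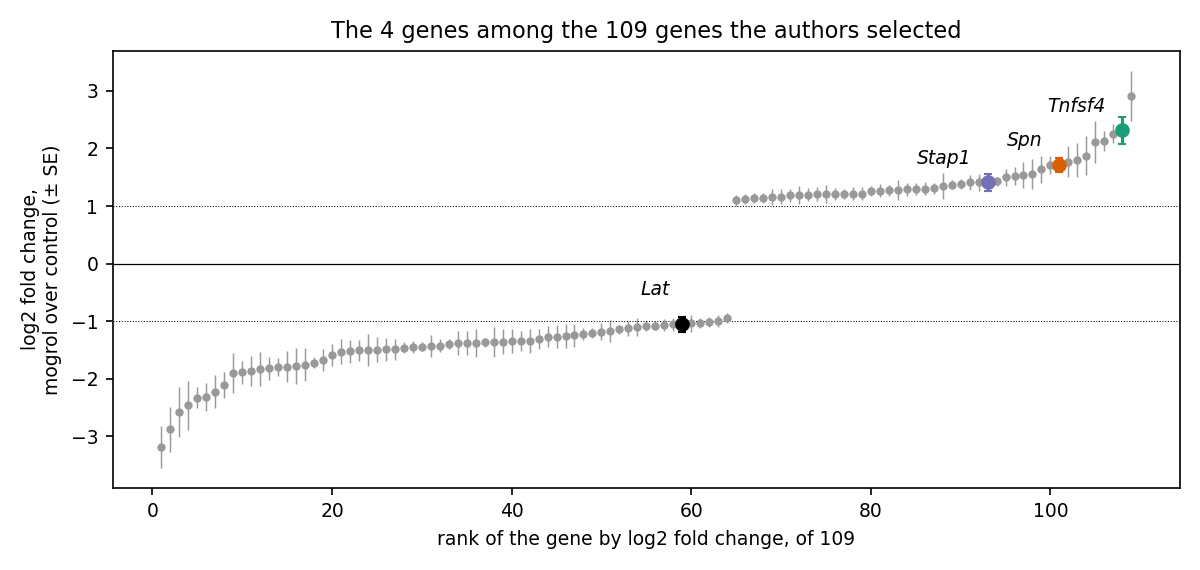
Log2 fold change of mogrol over control (vertical axis, bars ± SE) for the 109 selected genes in rank order (horizontal axis), with the 4 genes in colour and dotted lines at 2-fold in either direction. Tnfsf4 at 2.32, Spn at 1.71 and Stap1 at 1.41 stand among the increases, and Lat at -1.05 stands at the inner edge of the decreases.

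Because reads of different genes in a library share its total, the reads of Tnfsf4, Spn and Stap1 were also counted per read of Lat, which needs no scaling between libraries. Spn had 0.427, 0.380 and 0.425 reads per read of Lat without mogrol and 3.26, 2.58 and 2.61 with it. Lat thus had more reads than Spn, uncorrected for length, in all 3 control libraries and fewer in all 3 mogrol libraries, and the ratio was 6.83 times higher with mogrol. Stap1 had 0.341, 0.267 and 0.292 reads per read of Lat in control cells and 2.27, 1.34 and 1.44 in cells given mogrol. By reads it also passed from below to above Lat.
Tnfsf4 had 0.0480, 0.0622 and 0.0742 reads per read of Lat in control cells and 0.766, 0.612 and 0.561 in cells given mogrol. It stayed below 1 read per read of Lat in every library, although its ratio differed most, by 10.6-fold. Among the 3 genes that were higher, Tnfsf4 per Stap1 was 1.93-fold higher with mogrol (difference of log2 ratios 0.95, SE 0.294). Tnfsf4 per Spn was 1.55-fold higher (0.63, SE 0.204), and Stap1 per Spn was 0.803 times its control value (-0.32, SE 0.145).

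**Figure D3:**
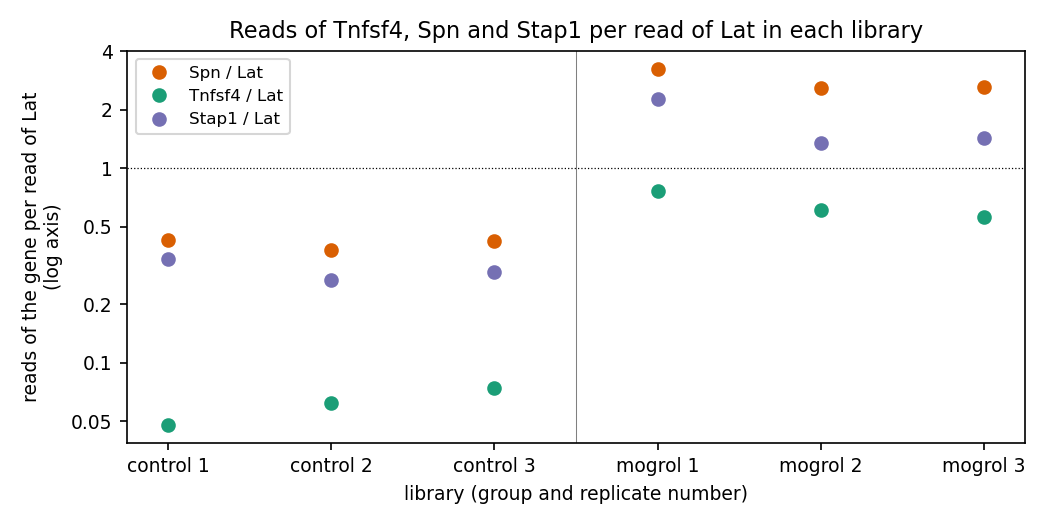
Reads of Spn, Stap1 and Tnfsf4 per read of Lat (vertical axis, log scale) in each of the 6 libraries (horizontal axis), with a dotted line at equal reads. Spn and Stap1 lie below the line in the control libraries and above it in the mogrol libraries, and Tnfsf4 moves from 0.0480 to 0.0742 up to 0.561 to 0.766.

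The order of the 4 genes by level depends on the gene length used. The deposited length equalled the total length of all annotated exons of the gene (GENCODE M21) for all 4 genes and for 106 of the 109. For Lat, with 3 retained-intron transcripts of 6, that length was 2767 bases, against 1235 for its longest protein-coding transcript. For Stap1, with 4 retained-intron transcripts of 6, it was 6215 against 3350 bases, and for Spn 4681 against 3743. The FPKM of these genes is lower than it would be on the shorter length, by 2.24, 1.86 and 1.25 times, and that of Tnfsf4 is the same.
On the deposited FPKM the order in control cells was Lat (8.47 ± 0.298), Spn (2.05 ± 0.0950), Stap1 (1.13 ± 0.0961) and Tnfsf4 (0.783 ± 0.181; SD, n = 3), and no neighbours in that order overlapped. In mogrol-treated cells the order was Spn (6.74 ± 0.320), Lat (4.08 ± 0.456), Tnfsf4 (3.92 ± 0.193) and Stap1 (3.003 ± 0.582; SD, n = 3). There the libraries of Lat (3.59 to 4.49) and Tnfsf4 (3.78 to 4.14) overlapped, so that the 2 genes were not apart beyond their spread. The highest library of Stap1, at 3.64, lay just below the lowest of Tnfsf4.
With the longest protein-coding transcript, a length chosen after the values were seen, the order with mogrol became Lat (9.15 ± 1.02), Spn (8.43 ± 0.401), Stap1 (5.57 ± 1.08) and Tnfsf4 (3.92 ± 0.193; SD, n = 3). Lat (8.04 to 10.1) and Spn (7.97 to 8.67) then overlapped, whereas Stap1 (4.64 to 6.75) and Tnfsf4 did not. The order in control cells was unaltered on that length, with Lat at 19.0 ± 0.668, Spn at 2.57 ± 0.119 and Stap1 at 2.09 ± 0.178 (SD, n = 3). Fold changes between the groups do not depend on the length.

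**Figure D4:**
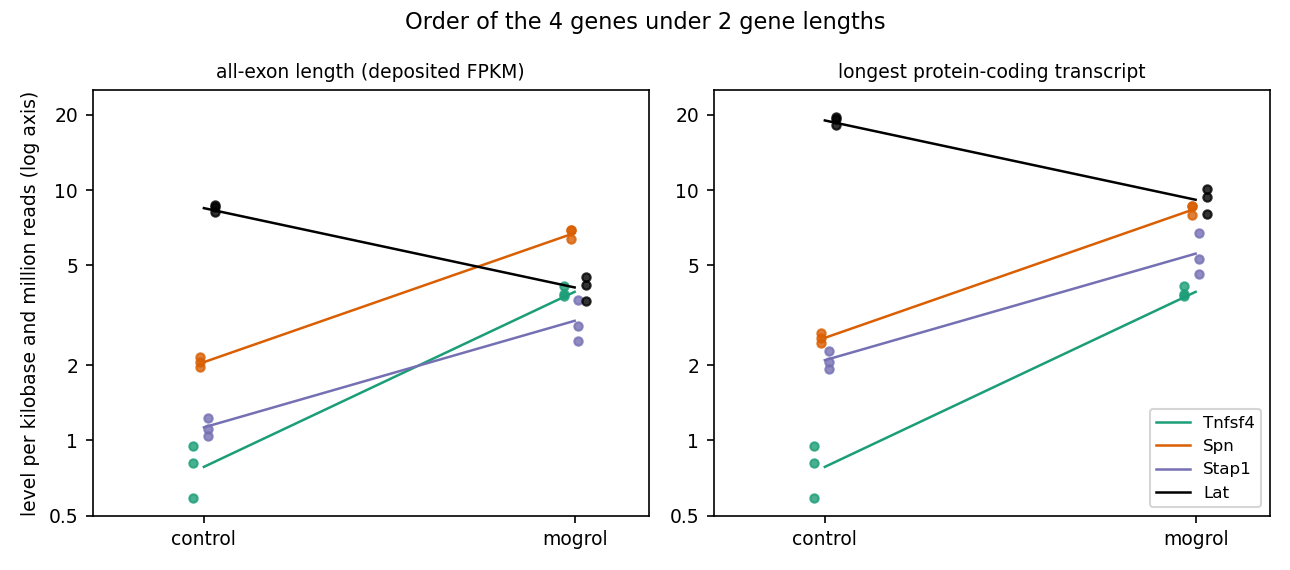
Level on the FPKM scale (vertical axis, log scale) of the 4 genes in control and mogrol-treated cells, with points for libraries and lines between group means, on the deposited all-exon length (left) and on the longest protein-coding transcript (right). The line of Lat crosses that of Spn on the left (4.08 against 6.74 with mogrol) and stays above it on the right (9.15 against 8.43).

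Mogrol replicate 1 was the mogrol library farthest from the control mean for 4 of the 4 genes, that is highest for Tnfsf4, Spn and Stap1 and lowest for Lat, although Spn in replicates 1 and 3 differed by little (32.43 and 32.39 RPM). Over the whole table it was the farthest mogrol library for 51 of 109 genes (46.8%). In control cells, replicate 2 was farthest from the mogrol mean for Spn, Stap1 and Lat and replicate 1 for Tnfsf4, and over the table they were so for 58 and 17 of 109 genes. Without mogrol replicate 1 the log2 fold changes were 2.28 for Tnfsf4, 1.69 for Spn, 1.25 for Stap1 and -0.97 for Lat.

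The lists of related genes were compared with the table by counts only. Of 42 symbols, mostly of kinases and adaptors close to antigen and Fc receptors, 5 were in the table. Of these 5, 4 were called higher and 1 lower (41.3% and 56.9% over the table). Besides Stap1 and Lat they were the Src family kinase gene Fgr (log2 fold change 1.30, SE 0.107), the docking protein gene Dok2 (1.30, SE 0.111) and Dock2, a Rac activator of leukocytes (1.13, SE 0.0899). Lat was thus the only gene of this list in the table that was lower with mogrol. The median of the 5 was 1.30, against -1.09 over the 109 genes. Every gene of the table had been selected on its difference, so nothing is read from this median.
On the FPKM scale Dok2 had a level of 5.80 ± 0.678 without mogrol and 14.3 ± 1.00 with it (SD, n = 3), and Fgr one of 5.09 ± 0.754 and 12.5 ± 1.53. Per length both were above Stap1 in each group.

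A list of costimulation was made up of TNF superfamily and B7 family genes with their receptors, TRAF adaptors and Sema4a. Of its 34 symbols 3 were in the table and all 3 were called higher, against 41.3% of the table. Of these 3 genes, Tnfsf4 alone belongs to the TNF superfamily or the B7 family. Traf3ip3, which encodes an adaptor that binds TRAF3, was counted at 14, 10 and 10 reads in controls and 43, 35 and 47 with mogrol, and its log2 fold change was 1.88 (SE 0.336). Sema4a, a semaphorin that costimulates T cells, had 10.8 ± 1.22 and 24.2 ± 1.31 RPM (SD, n = 3), and its log2 fold change was 1.16 (SE 0.129). The median of the 3 genes was 1.88, against -1.09 over the 109 genes. Nothing is read from it, as every gene of the table was selected on its difference. The OX40 receptor gene itself was not among the 109 genes and was not analysed here.

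Of 22 symbols of leukocyte mucins, adhesion glycoproteins and integrins, 4 were in the table. Of these 4, 2 were called higher and 2 lower (41.3% and 56.9% over the table), with a median log2 fold change of -0.10. Spn and the integrin gene Itgax (1.19, SE 0.112) were higher. Itgb7, the beta chain of a gut-homing lymphocyte integrin, was lower, with 57.4 ± 5.27 RPM without mogrol and 20.99 ± 0.622 RPM with it (SD, n = 3; log2 fold change -1.45, SE 0.104). Thy1, a surface glycoprotein of T cells and of stromal cells, was lower as well (94, 84 and 74 reads against 35, 24 and 37).

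The table allowed only a partial check of the cell types. Of 10 T cell, 7 B cell and 8 mast cell marker symbols, 0 were among the 109 genes, so the levels of those markers were not analysed here. Of 10 NK and cytotoxic cell symbols 2 were in the table, the granzyme genes Gzmc and Gzmd, and both were called lower (56.9% of the table). Gzmc was counted at 38, 54 and 54 reads in controls and 11, 8 and 23 with mogrol, and Gzmd 155, 207 and 181 against 73, 79 and 71. The summed level of these granzymes was 10.4 to 13.99 RPM in control cells and 4.54 to 5.12 RPM in cells given mogrol.
Of 13 macrophage markers 5 were in the table (Cx3cr1, Cybb, Clec7a, Fcgr3 and Itgax) and all 5 were called higher (41.3% of the table). Their summed levels were 188 to 251 RPM in control cells and 521 to 569 RPM with mogrol. Of 12 osteoclast markers, Ctsk and Ckb were in the table and both were called lower (56.9% of the table). The summed levels of this pair were 12507 to 13966 RPM in control cells and 6117 to 6460.2 RPM with mogrol. Of 20 symbols of stromal and osteoblast matrix genes, a list added after the values were seen, 9 were in the table. All 9 were more than 2-fold lower, where 56.9% of the table was called lower. Their median log2 fold change was -1.38, against -1.09 over the 109 genes. Among them were the collagen gene Col3a1 (-1.37, SE 0.0814), the periostin gene Postn (-1.44, SE 0.0837) and the bone matrix gene Ibsp (-2.10, SE 0.222). Their summed levels were 1600.0 to 1657 RPM without mogrol and 644 to 704 RPM with it. Tnfsf4, Spn and Stap1 had the direction of the macrophage markers in the table, and Lat that of the osteoclast, granzyme and stromal matrix genes. Every gene of the table had been selected on its difference between these libraries, so nothing is read from a shared direction. The part of these markers' cells in the values of the 4 genes was not tested.

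The gene annotation deposited with the table joins the members only in part. It names T cells, T-helper cells or thymic cells in 12 of the 44 terms of Tnfsf4, 5 of the 35 of Spn, 1 of the 16 of Lat and 0 of the 8 of Stap1. Such a term is carried by 9 of the 109 genes, of which 7 were called higher and 2 lower (41.3% and 56.9% over the table). The lower ones were Lat and Thy1. The term for SH3/SH2 adaptor activity was held by Stap1 and Lat alone among the 109 genes, 1 of which was higher and 1 lower. Those 2 genes and Dok2 share the term for transmembrane receptor tyrosine kinase signalling. No term joined 3 of the members.

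The genes most like each member across the 6 libraries were found by the root mean square difference of log2(RPM + 0.5) after the control mean of each gene was taken off. For Stap1 they were Cd300a, an inhibitory receptor gene of myeloid cells, at 0.082 and Fgr at 0.11. For Lat they were Sntb1, a syntrophin gene, at 0.046 and Card14, a CARD-family scaffold gene, at 0.061. For Tnfsf4 they were Nrcam at 0.24 and Gsta3 at 0.28, and for Spn they were Gsta3 at 0.14 and Stmn2 at 0.18. The median over the other genes of the table was 1.72 for Stap1, 0.49 for Lat, 2.18 for Tnfsf4 and 1.94 for Spn. Stmn2 is near Spn on this measure because the added 0.5 weighs on its low level of 0.216 RPM in control cells, and its own log2 fold change was 2.91 (SE 0.441). The added 0.5 also weighs, to a lesser degree, on Tnfsf4, at 1.45 RPM in control cells.
Cd300a had 8.89 ± 0.756 RPM in control cells and 23.6 ± 3.04 RPM in cells given mogrol (SD, n = 3), and its log2 fold change was 1.41 (SE 0.134). Sntb1 had 15.5 ± 0.655 and 7.53 ± 1.10 RPM (SD, n = 3), and its log2 fold change of -1.04 (SE 0.151) was near that of Lat. The points compared here share the libraries and their totals. With the control mean taken off, genes of a similar fold change come out near each other, so the similar fold changes add nothing to the nearness.

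**Figure D5:**
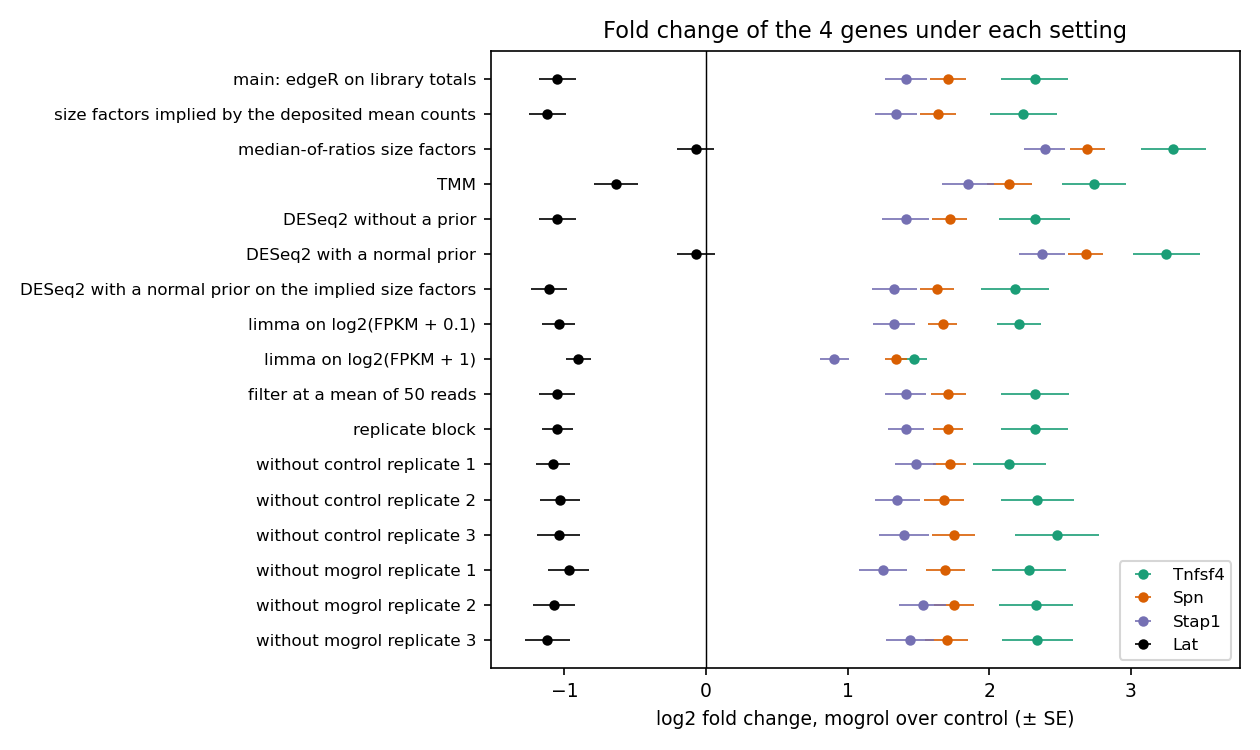
Log2 fold change of mogrol over control (horizontal axis, bars ± SE) of the 4 genes under the main fit and each alternative (vertical axis). The order Tnfsf4, Spn, Stap1 and Lat is the same in every line, while scalings computed on the selected genes alone move all 4 to the right, Lat to -0.07 with median-of-ratios factors, and adding 1 to the FPKM draws the values toward 0.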

How the data were processed

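RNA-seq of 3 control and 3 mogrol libraries was grouped by the labels' treatment and replicate number. The submitters' processing notes name cutadapt 1.9.1, HISAT2 2.0.1, HTSeq 0.6.1 and GRCm38, and the use of strand is not given in the sources used here. The authors deposited raw read counts, not normalized, and FPKM rounded to 2 decimals, for 109 genes that they selected by adjusted p-value and fold change with DESeq2. They also deposited the mean normalized count, a signal over the 6 libraries. Their own comparison (fold change, its error, statistic and p-values) was not used.

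Library totals were recovered from counts, FPKM and lengths, and the authors' size factors from the mean normalized counts. Fold changes and SE (from the quasi-likelihood F statistic) came from edgeR's quasi-likelihood fit (edgeR 4.0.16, R 4.3.3) on the 109 genes without filter, checked on simulated counts. Alternatives used DESeq2 1.42.0, limma 3.58.1 on FPKM with 0.1 or 1 added before taking log2, other scalings, a filter at a mean of 50 reads, the replicate block, and each library left out. Taken over the 109 genes, replicates of either group differed by more than sampling noise (chi-square per degree of freedom 5.23 to 40.5). Genes with many reads weigh most in this value, such as Ctsk, whose control SD was 31.9 times its counting error. The median of that ratio over the 109 genes was 1.77 in control cells and 1.54 with mogrol. For the 4 genes alone the SD was 0.56 to 3.57 times the counting error. Each library counted as 1 sample. Named genes were the 4 members, list and marker genes in the table, and for each member the 2 genes nearest in pattern. Members, lists and alternatives were chosen with earlier results of these data known. Promoters were RefSeq's, which matched 81 of the 109 symbols. The paper's other assays were not analysed here.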

Additional observations from a re-analysis of the deposited data

How the results depend on the processing

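The log2 fold changes of the 4 genes kept their signs under every alternative run, but the sign of Lat was not settled in all of them. Lat lay within its SE of 0 with median-of-ratios factors (SE 0.131). The same held for DESeq2 with its own size factors and a normal prior (SE 0.134). Scalings computed on the selected genes alone, of which more were lower than higher, moved the median of all 109 genes by 0.98 (median-of-ratios) and 0.42 (TMM). Median-of-ratios factors gave 3.30 for Tnfsf4, 2.69 for Spn, 2.39 for Stap1 and -0.0726 for Lat, with 8 genes called lower, and DESeq2 with its own size factors and a normal prior gave 3.25, 2.68, 2.37 and -0.0723, also with 8. TMM gave 2.74, 2.14, 1.85 and -0.63, with 30 genes called lower. Relative to the median of all genes, Lat stayed at 0.04, 0.03 and 0.02 in the main fit, with median-of-ratios factors and with TMM. Of the called genes 42.1% were higher in the main fit, 84.9% with median-of-ratios factors and 60% with TMM. Limma on log2(FPKM + 1) gave 1.47, 1.34, 0.90 and -0.90, with 25 genes called higher and 27 lower against 45 and 62, since the added 1 weighs on low FPKM. The size factors implied by the mean normalized counts gave 2.24, 1.64, 1.34 and -1.12 (SE 0.129 for Lat), with 64 genes called lower. DESeq2 with a normal prior on those factors, added after seeing the data, gave 2.18, 1.63, 1.33 and -1.11 (SE 0.127 for Lat), also with 64.

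Leaving out mogrol replicate 1 took Lat to -0.97, below 2-fold. With each library left out in turn Tnfsf4 ranged from 2.14 to 2.48, Spn from 1.68 to 1.75, Stap1 from 1.25 to 1.53 and Lat from -1.12 to -0.97, with 45 genes called higher each time and 60 to 63 lower. With the replicate number as a block the values were 2.32, 1.71, 1.41 and -1.05, with 45 and 62 genes called. The numbers were not taken as pairs: same-numbered libraries' deviations correlated at 0.0963, 0.334 and 0.0887 across genes, which are not independent replicates, and 5 of 6 libraries correlated best with their own number. Read depth limits Tnfsf4 most, with a mean of 26.7 reads per control library.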
